A study of Mus musculus with 34 samples.

Results

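Of 9197 windows of 200 kb on 17 mouse autosomes, 471 (5.12%) were detected as contacts of the immunoglobulin heavy chain locus Igh in libraries of both replicate numbers. These 471 are called the shared trans windows here. Circular chromosome conformation capture (4C) with HindIII counts the restriction fragments that were ligated to a bait fragment, here in Igh on chromosome 12. A contact is in trans when the fragment lies on another chromosome. The windows were chosen by detection, which is a measured value: a window counted as detected in a library with reads on at least 2 of its HindIII fragments, and it was kept when this held in at least 1 library numbered 1 and in at least 1 library numbered 2. The eligible windows exclude chromosomes 12 and 15, X and Y, the first 13 Mb of each chromosome and its last 10 Mb.

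The series has 34 samples, of which the 4 4C libraries were used. They come from 2 plasmacytomas of Balb/c mice, TEPC1165 and PCT4961, with 2 libraries each. A plasmacytoma is a tumor of plasma cells, the B-lineage cells that secrete antibody. The labels give PCT4961 the genotype AID-/- BclXL, so it lacks AID, the enzyme that starts class switching and hypermutation of antibody genes. BclXL is a gene that keeps cells from dying. They give TEPC1165 no genotype. Genotype and tumor cannot be told apart in this design. Nothing in the labels tells whether a tumor's 2 libraries were prepared from independent material.

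As background, most contacts of a bait lie on its own chromosome, and contacts in trans are sparse. Trans contacts between chromosomes are known to favour gene-rich, transcribed chromatin over silent chromatin. In plasma cells Igh is transcribed at a very high level, as is a light chain locus, Igk or Igl, on another chromosome. Which light chain locus each tumor transcribes was not examined here. In 4C many reads can come from copies of a single ligation product, so contacts are often counted as the number of different fragments with a read.

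The libraries held 1668589 to 2178689 reads, of which 318496 to 640432 lay in the eligible windows. Libraries with the same number share detections far beyond libraries with different numbers, across tumors. Of the windows detected in TEPC1165 replicate 1, 72.9% were also detected in PCT4961 replicate 1, and 81.4% of those of TEPC1165 replicate 2 were also detected in PCT4961 replicate 2. Libraries of different number shared 23.8% to 35.2%. Whether same-numbered libraries hold reads of each other was not tested. Recurrence is therefore counted between different numbers, and counts over all 4 libraries or by tumor include same-numbered pairs.

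Detection recurred across numbers. A library numbered 1 detected 1488 of the eligible windows (16.2%), and a library numbered 2 detected 1212 (13.2%). Among the 1488 windows, 31.7% were detected again in number 2 (95% Wilson interval 29.3% to 34.1%), against 9.61% of the windows that number 1 did not detect. Seen from the other side, the shared windows were 38.9% of those detected in number 2. The recurrence was present on every chromosome used: on all 17, detection in number 2 was more frequent among windows detected in number 1 than among all windows, by 1.87 to 2.98 times. These intervals cover counting error only, since neighbouring windows are not independent.

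Most shared windows stood at the threshold. In 372 of them the number with the fewer fragments had a maximum of exactly 2, and in 171 of these the other number also had 2. A further 70 reached 3 and 29 reached 4 or more. Just outside the rule lay 902 windows with at least 2 fragments in 1 number and exactly 1 in the other. Summed over the 4 libraries, the median window had 554.5 reads in the 372 just inside and 319 in the 902 just outside. At the other extreme, 3320 eligible windows had no read in any library.

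The highest-ranked shared windows were few and were detected in every library. Windows were ranked by the fragments of their lower number, and all of the first 20 had at least 2 fragments in each of the 4 libraries. The ranking demands fragments in both numbers, and same-numbered libraries share most detections. Detection in all 4 libraries is therefore no independent result. The 20 windows lay on 11 chromosomes. The first was 6:70600001-70800000, within 67 to 71 Mb of chromosome 6, the range taken for Igk, the kappa light chain locus. It had 14 and 13 of its 58 HindIII fragments detected in TEPC1165 and 15 and 14 in PCT4961. Its reads were 766 and 936 in TEPC1165 and 3542 and 4096 in PCT4961, higher in both PCT4961 libraries although the fragments were nearly equal. The second was 16:19000001-19200000, within 18 to 20 Mb of chromosome 16, the range taken for Igl, the lambda light chain locus. It had 8 and 9 fragments in TEPC1165 and 7 and 9 in PCT4961. The reads ran the other way, 1373 and 1380 in TEPC1165 against 149 and 493 in PCT4961. Its neighbour 16:19200001-19400000 ranked next but one, with 9 and 4 fragments in TEPC1165 and 8 and 6 in PCT4961.

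Windows outside the light chain loci followed closely. Window 6:129000001-129200000 had the rank after the Igl window, and its fragments split by number rather than by tumor: 12 in TEPC1165 replicate 1 and 12 in PCT4961 replicate 1, but 6 in both libraries numbered 2. Its reads were 279 and 40 in TEPC1165 and 1689 and 1053 in PCT4961. Window 3:96000001-96200000 had 7 and 5 fragments in TEPC1165 and 7 and 6 in PCT4961, out of only 48. The next window, 3:96200001-96400000, also with 48 fragments, had 5 and 5 detected in TEPC1165 and 4 and 5 in PCT4961. Both offered fewer fragments than the median eligible window, which holds 64.

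Window 7:132600001-132800000 had 5 and 8 fragments in TEPC1165 and 5 and 9 in PCT4961. Its reads were 1155 and 72 in TEPC1165 and 68 and 115 in PCT4961, so a single library stood above the other 3. On chromosome 11, 11:86600001-86800000 had 4 and 5 fragments in TEPC1165 and 6 and 5 in PCT4961. Window 11:87400001-87600000 had 5 and 6 fragments in TEPC1165 and 4 and 6 in PCT4961. Reads of a window varied more: those of 11:86600001-86800000 were 8 and 511 in TEPC1165 and 159 and 67 in PCT4961. The last of the 20, 14:56200001-56400000, was even in fragments and reads, with 4 fragments in each library and reads of 195 and 127 in TEPC1165 and 87 and 111 in PCT4961.

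The other members of the first 20 had 3 to 7 fragments in each library. They were 1:85200001-85400000 and 1:158800001-159000000, 2:163400001-163600000, 4:133600001-133800000, 6:125000001-125200000, 7:87200001-87400000, 7:108200001-108400000, 7:133800001-134000000, 10:94200001-94400000 and 13:23600001-23800000. Window 6:125000001-125200000 is the poorest in HindIII fragments of the 20, with 40, yet 4 and 3 were detected in TEPC1165 and 6 and 4 in PCT4961. Of the 20 windows, 13 held fewer than 64 HindIII fragments and 11 had an adjacent shared window. No gene is named inside these windows, because an annotation of the genome build of the files (mm9) was not used here.

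**Figure D1:**
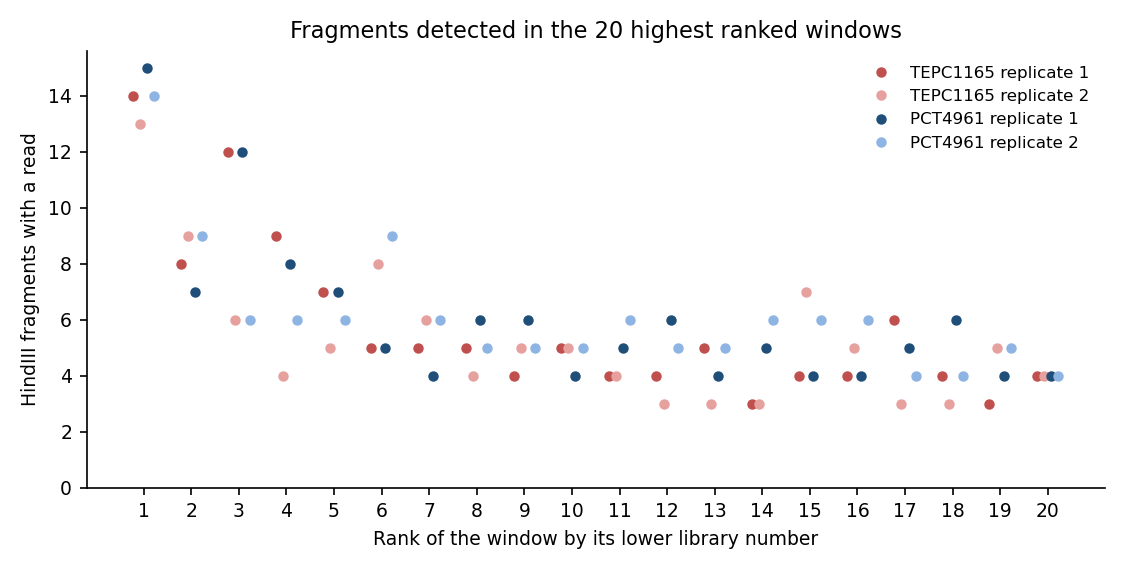
HindIII fragments with at least 1 read (vertical axis) in each of the 4 libraries, for the 20 shared trans windows with the most fragments in their lower library number (horizontal axis, rank). The first window, in the Igk range, has 13 to 15 fragments in every library. Apart from it, only the window of rank 3 exceeds 9 in any library, with 12 in both libraries numbered 1.

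Shared windows held fewer HindIII fragments than the rest, although a window with more fragments offers more chances of detection. HindIII cuts at a site rich in A and T, so gene-poor, A/T-rich sequence tends to hold more HindIII fragments. Base and gene content of single windows were not examined. The median was 62 fragments in the shared windows (quartiles 54.5 and 68) and 65 in the other eligible windows (58 and 71). The windows detected in all 4 libraries, 189 of the 471, had a median of 61. Windows detected in 1 number only had 64, and windows detected in neither had 65. Of the shared windows 59.7% lay under the eligible median of 64, against 45.6% of the other windows.

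By bands of fragment number, the shared windows made up 6.99% of the windows with at most 58 fragments. They made up 5.70% of those with 59 to 64, 4.05% of those with 65 to 71 and 3.56% of those with 72 or more. Recurrence was present in each band. In the lowest band 36.9% of the windows detected in number 1 recurred in number 2, against 12% of the others. In the highest band these values were 24.1% and 8.79%. Each single library showed the same direction, with medians of 62 or 63 fragments in its detected windows.

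**Figure D2:**
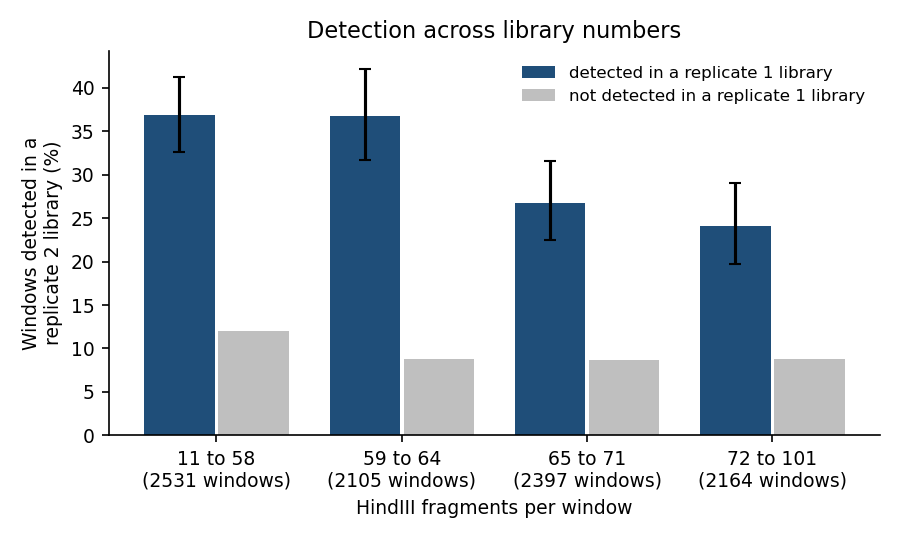
Percentage of eligible windows detected in a replicate 2 library (vertical axis), by the number of HindIII fragments in the window (horizontal axis), for windows detected or not detected in a replicate 1 library. Bars on the first series are 95% Wilson intervals. The first series falls from 36.9% in the lowest band to 24.1% in the highest and is above the second in each band.

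By chromosome, the share of windows in the set ran from 2.02% on chromosome 5 to 7.09% on chromosome 11. Chromosome 11 had 35 shared windows of 494 (95% Wilson interval 5.14% to 9.69%). It was followed by chromosome 6 with 43 of 632 (6.80%), chromosome 10 with 36 of 534 (6.74%) and chromosome 1 with 57 of 858 (6.64%). At the low end were chromosome 5 with 13 of 642 (1.19% to 3.43%), chromosome 8 with 13 of 524 (1.46% to 4.20%) and chromosome 19 with 5 of 191 (1.12% to 5.98%). The intervals of chromosomes 5 and 8 lay below those of chromosomes 1, 2, 4, 6, 9, 10 and 11. Neighbours in this order overlapped widely, and the 7 highest chromosomes, from 11 to 2, could not be ordered among themselves.

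Chromosomes that were often detected in one number tended to be so in the other. Across the 17 chromosomes the percentage of windows detected in number 1 and in number 2 had Pearson's r of 0.77 and Spearman's rho of 0.70, a description of points that share libraries and depth. Chromosomes 5 and 8 were below the average of every library, with 8.41% and 6.30% of windows detected in TEPC1165 replicate 1, 5.92% and 4.96% in TEPC1165 replicate 2, 8.88% and 9.73% in PCT4961 replicate 1, and 7.01% and 7.25% in PCT4961 replicate 2. Chromosome 11 had 17.6%, 11.7%, 18.8% and 14.8% in the same order of libraries. The order did not follow the number of protein-coding genes per Mb of whole chromosomes. Gene content of the eligible stretches or of single windows was not examined. Protein-coding genes per Mb, from the RefSeq gene table of GRCm38 over the chromosome lengths of the files, had r of 0.11 with the share of shared windows (rho 0.10, 17 chromosomes). The number of eligible windows on a chromosome had r of 0.46 with that share (rho 0.34). For the median number of HindIII fragments per window of a chromosome, r was -0.063 (rho -0.15). Chromosomes 7 and 11 have the most genes per Mb, 13.3 and 13.2, yet 4.41% and 7.09% of their windows were shared. Chromosome 19, with 11.5 genes per Mb, had 2.62%.

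**Figure D3:**
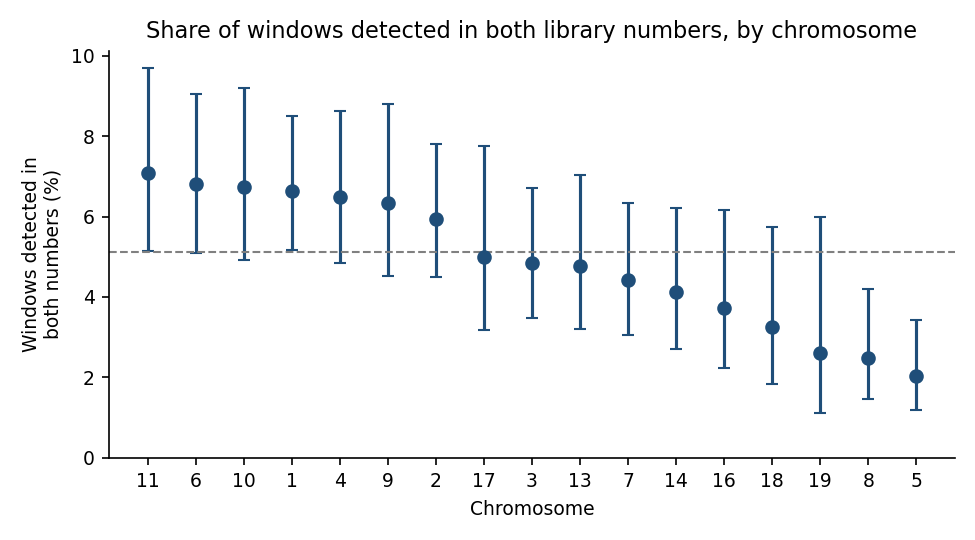
Percentage of eligible windows detected in both library numbers (vertical axis) for each of 17 chromosomes (horizontal axis), ordered by the percentage, with 95% Wilson intervals. The dashed line is the value over all eligible windows, 5.12%. Chromosomes 5 and 8 lie lowest, at 2.02% and 2.48%.

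Shared windows lay closer together than the other windows lay to them. An adjacent shared window was present beside 145 of the 471 (30.8%, 95% Wilson interval 26.8% to 35.1%), and beside 8.51% of the other eligible windows. Windows detected in 1 number only took an intermediate place with 15.7%, and windows detected in neither had 6.70%. Within 1 Mb on either side, 63.3% of the shared windows and 32.5% of the others had a shared window. The 471 formed 388 runs of consecutive windows, of which 326 were single windows, 45 were pairs, 13 had 3 windows and 4 had 4. In the 158 blocks of 10 Mb that were eligible throughout, the median was 2 shared windows and the highest 10. No shared window lay in 30 blocks, and 21 blocks with 6 or more held 150 of them.

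The excess faded with distance. At 0.2 Mb from a shared window, the neighbouring grid position, 17.7% of windows were shared, against 5.12% of all windows compared. At 1 Mb the value was 10.1%, at 2 Mb 8.19%, at 5 Mb 5.76% and at 10 Mb 4.97%, by then near the 5.10% of all windows. A decline up to 5 Mb was also seen when the detections at the 2 positions came from libraries of different number. Beside a window detected in number 1, 22.8% of windows were detected in number 2, against 13.2% of all. The value was 17.3% at 1 Mb, 16.1% at 2 Mb and 14.0% at 5 Mb. It was 15.1% at 10 Mb, so this curve did not fall steadily.

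The neighbourhood was also counted by library, within and between tumors. Beside a window detected in TEPC1165 replicate 1, detection was 1.93 times the average in TEPC1165 replicate 2 and 1.97 times in PCT4961 replicate 2. Beside a window detected in PCT4961 replicate 1 it was 1.98 times the average in PCT4961 replicate 2 and 2.00 times in TEPC1165 replicate 2. The within-tumor and between-tumor values differ only in which of the same-numbered libraries is read second, and these share most detections, so they do not compare the tumors.

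**Figure D4:**
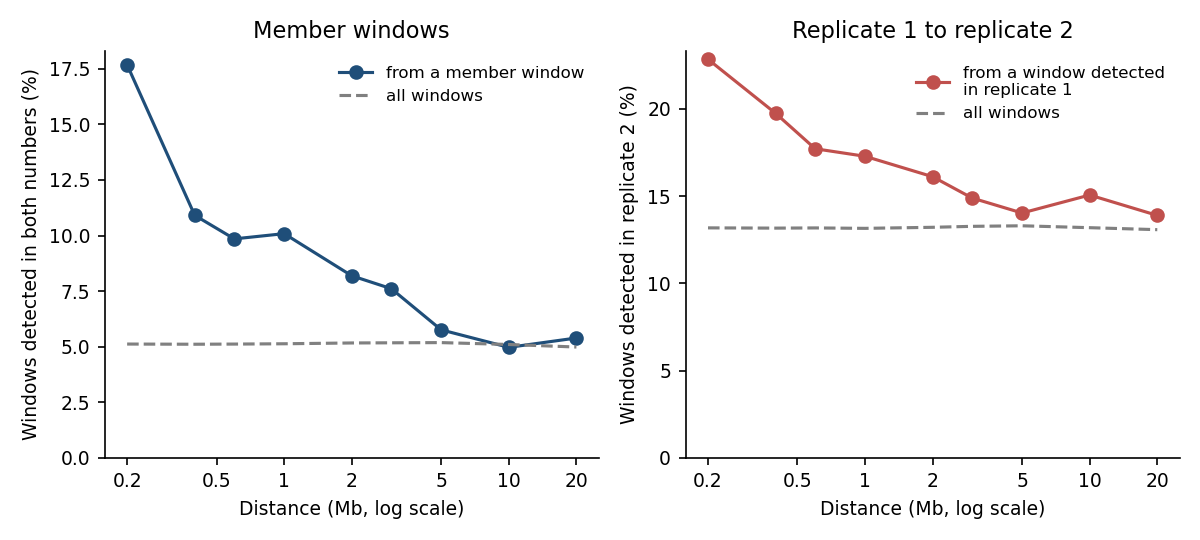
Left, percentage of windows detected in both numbers at a given distance from a shared trans window; right, percentage detected in a replicate 2 library at a given distance from a window detected in a replicate 1 library. Horizontal axes give the distance in Mb on a log scale, and dashed lines give all windows compared. Both curves start well above the dashed line at 0.2 Mb (17.7% and 22.8%) and come near it by 5 Mb.

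The 4 longest runs had 4 windows each. The run at 6:69000001-69800000 is in the Igk range, with 17 and 8 fragments in TEPC1165 and 20 and 7 in PCT4961, so the libraries numbered 1 were high in both tumors. The run at 9:107600001-108400000 had 11 and 9 fragments in TEPC1165 and 14 and 13 in PCT4961, out of 200. Its reads were 97 and 64 in TEPC1165 and 297 and 188 in PCT4961, higher in both PCT4961 libraries. The run at 4:128800001-129600000 had 11 and 8 fragments in TEPC1165 and 12 and 9 in PCT4961. That at 9:57000001-57800000 had 7 and 6 in TEPC1165 and 9 and 8 in PCT4961, and its reads were 2420 and 681 in TEPC1165 against 825 and 235 in PCT4961. Among the 13 runs of 3, the first in chromosome order was 1:156800001-157400000, with 9 and 5 fragments in TEPC1165 and 6 and 5 in PCT4961.

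Shared windows also gathered in stretches with gaps between them. The densest stretch of 2 Mb was 3:94600001-96600000, where 7 of 10 windows were shared. It had 28 and 26 fragments detected in TEPC1165 and 29 and 28 in PCT4961, of 543. The stretch 6:68800001-70800000 in the Igk range had 6 of 10, with 38 and 27 fragments in TEPC1165 and 42 and 27 in PCT4961. The stretch 9:106400001-108400000 also had 6, with 19 and 17 in TEPC1165 and 22 and 22 in PCT4961. Among the stretches with 5 shared windows were 2 on chromosome 11, 11:85600001-87600000 and 11:101400001-103400000. These stretches were picked for their density after the data were seen and carry no test.

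The Igk and Igl ranges, chosen after the data were seen, are small, so most shared windows lay elsewhere. The Igk range was rich in shared windows, while the Igl share rests on only 2 adjacent windows. The Igk range held 7 in 20 windows (35%) and the Igl range 2 in 10 (20%), against 5.12% of all eligible windows. This leaves 462 elsewhere. Without both ranges 29.7% of the shared windows still had a shared neighbour.

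Shared windows became more frequent towards the far end of the chromosomes. Mouse chromosomes have the centromere at the start of the coordinates, and Igh itself lies near the far end of chromosome 12. Whether the position of Igh bears on the gradient was not tested. When the eligible stretch of each chromosome was cut into 5 equal parts, from the centromere side outwards, the share of windows in the set was 3.46%, 3.73%, 5.06%, 5.33% and 8.03%. The first part had 64 shared windows of 1850 (95% Wilson interval 2.72% to 4.39%) and the last 147 of 1830 (6.87% to 9.37%). The last 10 Mb of each chromosome do not enter these counts. The last part exceeded the first on 13 of the 17 chromosomes and was below it on 4.

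Each library showed this gradient. From the first to the last part, the detected windows rose from 9.46% to 16% in TEPC1165 replicate 1 and from 6.65% to 13.1% in TEPC1165 replicate 2. They rose from 9.73% to 17.9% in PCT4961 replicate 1 and from 7.95% to 15.5% in PCT4961 replicate 2. The last part also had fewer HindIII fragments per window, with a median of 62 against 65 in the first. Within each band of fragment number the last part had more shared windows than the first: 10.2% against 3.74% in the lowest band, 8.61% against 3.92% in the next, 5.25% against 3.70% in the one after and 6.27% against 2.59% in the highest. By the inner and outer part of equal length, chromosome 11 went from 2.42% to 11.8% and chromosome 3 from 1.46% to 8.24%. Chromosome 17 went the other way, from 8.84% to 1.11%.

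**Figure D5:**
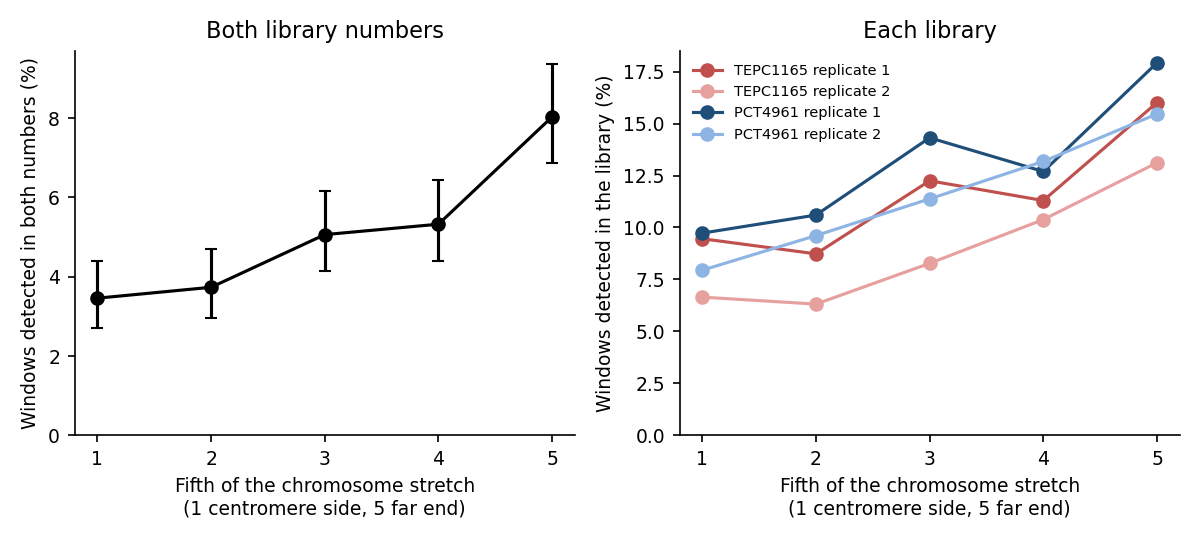
Left, percentage of eligible windows detected in both library numbers in 5 equal parts of each chromosome's eligible stretch, with 95% Wilson intervals; right, percentage detected in each of the 4 libraries. The horizontal axes run from the centromere side (1) to the far end (5). The left curve goes from 3.46% to 8.03%, and all 4 libraries are highest in the last part.

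Most shared windows were detected in both tumors, a count that includes the same-numbered libraries, which share 63.3% to 81.4% of their detected windows. All 4 libraries detected 189 of the 471, exactly 3 detected 196, and exactly 2 detected 86. Counting any fragment, 423 had a read in all 4 libraries. In 50 windows detection came from the PCT4961 libraries alone, and in 13 from the TEPC1165 libraries alone. Requiring in addition that no fragment was read in the other tumor left 2 and 1 windows. PCT4961 replicates 1 and 2 detected 406 and 425 of the shared windows, and TEPC1165 replicates 1 and 2 detected 348 and 337. Over all eligible windows PCT4961 replicates 1 and 2 detected 1200 and 1059 windows and TEPC1165 replicates 1 and 2 detected 1062 and 823, so the tumors overlapped, with PCT4961 higher within each number.

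Agreement between numbers was counted within and across tumors. Each value here is the share of windows detected in a first library that a second library also detected, divided by the share of all eligible windows that the second detected. It was 2.78 between the TEPC1165 libraries and 2.70 between the PCT4961 libraries. It was 2.55 between TEPC1165 replicate 1 and PCT4961 replicate 2, and 2.65 between TEPC1165 replicate 2 and PCT4961 replicate 1. These differences were not tested, and because same-numbered libraries share most detections the values do not compare the tumors. Defined within a tumor only, the rule gave 448 windows, and defined across tumors only it gave 408.

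In reads, the shared windows took a larger part of the trans signal in PCT4961. They held 24.2% and 27.8% of the reads of the eligible windows in PCT4961 and 16.7% and 20.2% in TEPC1165. The means were 26.0% ± 2.49 and 18.4% ± 2.48 (SD, n = 2 each), and the difference was 7.58 percentage points in both numbers. The ranges of the tumors were separate, but the windows were chosen on these same libraries, so this is a description. The difference fell to 3.67 points when PCT4961 replicate 2 was left out and the windows chosen anew. Counted as fragments the tumors overlapped, with 21.9% and 24.9% in PCT4961 and 20.4% and 24.1% in TEPC1165. Reads per detected fragment moved with this. In TEPC1165 they were 103 and 94.0 in the shared windows and 131 and 118 in the other eligible windows. In PCT4961 they were 64.7 and 91.3 in the shared windows and 56.7 and 78.8 in the others. The part of these values in the difference between tumors was not tested.

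Window by window, reads varied widely between the replicates of a tumor. The median of reads per shared window was 19 and 18 in the TEPC1165 libraries and 41 and 62 in those of PCT4961. Among windows detected in both libraries of a tumor, the scaled reads differed between its replicates by a median of 6.88-fold in TEPC1165 (264 windows) and 3.77-fold in PCT4961 (373 windows). Across the 471 windows the log2 of reads plus 1 had a Pearson correlation of 0.058 between the TEPC1165 libraries and 0.24 between the PCT4961 libraries, a description over windows chosen on detection. For the number of fragments, Spearman's rho was 0.215 between the TEPC1165 libraries and 0.208 between the PCT4961 libraries.

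Of the shared windows, 419 had enough reads to be tested between the tumors by edgeR's quasi-likelihood test, and 0 were called at an adjusted p under 0.05. Over all chromosomes 0.522% of the 3449 tested windows were called. At an unadjusted p under 0.05 there were 6 shared windows, all higher in PCT4961, or 1.43% of those tested, against 1.68% of all tested windows, which include chromosomes 12 and 15, and 0.157% of the 1905 other eligible windows tested. The share of the shared windows is near that of all tested windows and is not a result about them. Fitted without chromosomes 12 and 15, edgeR gave 0 shared windows at an unadjusted p under 0.05. DESeq2 also called 0, with 32 shared windows (7.64%) at an unadjusted p under 0.05, all higher in PCT4961. This compares with 4.78% of all tested windows and 3.46% of the other eligible windows tested. The shared windows were chosen on detection in these same libraries, so no difference between the tumors is read from this share. The median log2 fold change, PCT4961 over TEPC1165, was 0.74 in the 419 shared windows and -1.01 in all tested windows. In the 1905 other eligible windows tested it was -1.94. It was -0.50 in the shared windows without PCT4961 replicate 1 and -0.20 without PCT4961 replicate 2, so its sign was not kept. The other eligible windows had -2.26 and -1.07 in these fits. Leaving out a TEPC1165 library gave 2.66 (replicate 1) or 3.15 (replicate 2) in the shared windows. The other eligible windows then had 0.28 and -0.43. The filter on reads was applied anew to the remaining libraries, so the windows tested also changed. With the size factors of DESeq2 the medians were 0.077 in the shared windows, -2.54 in the other eligible windows and -1.70 in all tested windows. The 419 are those that passed the filter on reads, and no difference is read from their median.

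The libraries of the tumors were also set side by side without a model. In 153 shared windows (32.5%) both PCT4961 libraries had a larger share of their eligible reads than both TEPC1165 libraries, and in 40 (8.49%) the reverse held. Over all eligible windows these values were 6.59% and 2.31%, but most of those had no read in some library. Among windows with a read in all 4 libraries, PCT4961 was higher in 31.9% of 423 shared windows and 23.4% of 749 others, and TEPC1165 was higher in 8.98% and 10.9%. The shared windows were chosen on detection in these same libraries, and the PCT4961 libraries detected more of them. These values are therefore a description, and no difference between the tumors is read from them.

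The windows with the most reads in both libraries of a tumor were in part those with the most fragments. In PCT4961 they were the Igk window 6:70600001-70800000, 17:56600001-56800000 and 6:129000001-129200000. Window 17:56600001-56800000 had 1315 and 1884 reads in PCT4961 and 23 and 16 in TEPC1165, with 2 and 3 fragments in each tumor. By edgeR this was 6.90 on the log2 scale (SE 2.39) with an adjusted p of 0.795, so the difference did not pass the test. In TEPC1165 they were 14:108400001-108600000, the Igl window 16:19000001-19200000 and 16:13600001-13800000. Window 14:108400001-108600000 had 1988 and 1849 reads in TEPC1165 against 158 and 78 in PCT4961, with 3 and 4 fragments in each tumor. Its edgeR estimate was -3.50 on the log2 scale (SE 2.30) and its adjusted p was 0.795. Window 16:13600001-13800000 had 1538 and 961 reads in TEPC1165 against 211 and 69 in PCT4961, on 2 fragments in each library. For the Igk window the estimate was 2.80 on the log2 scale (SE 1.21) and the edgeR adjusted p was 0.795. It was the 1 shared window called when TEPC1165 replicate 1 was left out, with an edgeR adjusted p of 0.0274.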

How the data were processed

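Per the file headers, the authors deposited, for each library, the count of reads on the HindIII fragments of each 200 kb window of mm9, and the counts of detected and of all fragments. The values are whole numbers without scaling. Aligner, bait position and treatment of PCR duplicates: not given in the sources used here. The tables hold 12836 windows and 823057 fragments; 75 grid positions inside the eligible stretches have no window and were not analysed here. Coordinates are 1-based.

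The shared windows, the lists and the tests were chosen with earlier results of these data known. Shares, neighbours (by position on the grid) and positions were computed with Python 3.11.15 and pandas 2.3.3, and 95% Wilson intervals with scipy 1.17.1. Reads of all chromosomes were fitted with edgeR 4.0.16 (R 4.3.3): TMM factors, tumor as the only term, a prior count of 2, a minimum of 10 reads in 2 or more libraries, 11 windows within 1 Mb of the highest window of chromosome 12 left out, two-sided, Benjamini-Hochberg adjustment. The script was tested on simulated counts. The spread behind each p-value is that of these libraries and may be technical only. The SE of a log2 fold change was approximated as its absolute value divided by the square root of the F statistic of the test. DESeq2 1.42.0 was an alternative. Windows were named by rank on fragments (the first 20), the 5 longest runs, the 3 highest windows of each tumor by its lower library, and the Igk and Igl ranges. Depth was 9191 to 11226 detected fragments per library, and intervals cover counting error only.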

Additional observations from a re-analysis of the deposited data

How the results depend on the processing

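With detection from 1 fragment, 2236 windows were shared, 51.8% of windows recurred across numbers (32.0% of the others), 50.5% lay under the median fragment number (44.9%), 54.6% had a shared neighbour (36.8%), and the difference in reads between tumors was 12.3 percentage points. From 3 fragments these were 99 windows, 22.3% (3.13%), 57.6% (46.2%), 22.2% (1.87%) and 2.98 points. With at least 10 reads in place of 2 fragments they were 1022 windows, 38.9% (21%), 55.2% (45.2%), 39.9% (17.7%) and 11.1 points. The values in brackets are for windows not detected in number 1 (recurrence) and for the other eligible windows (fragment number and neighbours), and each was lower than its counterpart under these rules. Within 1 Mb, 63.3% had a shared neighbour. Leaving out a library in turn gave 22.6% to 33.8% for recurrence, 25.2% to 31.0% for a shared neighbour and 3.67 to 9.15 points for reads, the lowest each time without PCT4961 replicate 2. The number of shared windows called different was 0 to 1 when a library was left out, with the lone library assumed to vary like the others. It was 0 with a replicate block, as with the other scalings and filters. Deviations of same-numbered libraries correlated at r = 0.638 (3449 windows); whether a number pairs libraries is not in the labels. Leaving out the Igk and Igl ranges, chosen after the data were seen, gave 462 windows, 31.3%, 60.2%, 29.7% and 7.03 points. The rule on 2 fragments limits what depth can show: windows with a single ligation product per library are missed.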

Other observations

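High reads were more frequent among the shared windows but mostly lay elsewhere. Of the shared windows 19.1% had at least 1000 reads in a library, against 3.93% of the other eligible windows, and reads and fragments are not independent. Of the 433 windows with at least 1000 reads, 90 (20.8%, against 5.12% of all eligible windows) were shared, 199 were detected in 1 number only and 144 in neither. The highest window detected in 1 number only was 4:116000001-116200000, with 3207 reads in TEPC1165 replicate 1 and 133 in PCT4961 replicate 1, on 2 fragments each, and no read in either library numbered 2. Window 17:66800001-67000000 was its mirror image, with 2953 reads in TEPC1165 replicate 2, 120 in PCT4961 replicate 2 and none in the libraries numbered 1. Window 7:97400001-97600000 had 2747 reads in TEPC1165 replicate 1, 124 in PCT4961 replicate 1 and none in number 2.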
